A study of Mus musculus with 11 samples.

Results

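Cells that carried transcripts of the monocyte chemokine receptors Ccr2 or Cx3cr1 were examined among Kupffer cells (KCs), the resident macs of the liver, sorted from Zeb2KO mice. A cell was taken when it held at least 1 unique molecular identifier (UMI, 1 counted transcript) of Clec4f and at least 1 of Ccr2 or Cx3cr1, and none of Timd4, Siglecf or Ms4a1. Of 4446 filtered cells of the Zeb2KO liver library, 449 met this rule, out of 51712 cell barcodes in the 11 libraries of the series. They were set against 726 cells of the same library with UMIs of Clec4f and Timd4 and none of the other 4 genes. The study clustered its cells and named a group with Cx3cr1 and Ccr2, without Siglecf and Timd4, putative monocyte-derived KCs that had recently arrived. It named a group with Timd4 and without Siglecf long-lived KCs, and regards both groups as heterozygous for Zeb2 (Zeb2+/-). The gates here pick single cells by UMIs of these genes, so their cells need not be those of the study's groups. Zeb2KO names the mice and the library, and not the genotype of the gated cells, which the counts do not measure. Here the gated cells are called Ccr2/Cx3cr1 KCs and Timd4 KCs after the genes that placed them. A further 2238 cells with Clec4f and a UMI of Siglecf or Ms4a1, whatever their Timd4, Ccr2 and Cx3cr1, are called Siglecf/Ms4a1 KCs. The values of these 6 genes chose the cells, so no difference in them is a result. The study found Zeb2 deleted in sorted SiglecF+ KCs and regards them as Zeb2-/-. Cells without Zeb2 but without a UMI of Siglecf or Ms4a1 may lie in the other gates. At least 3 UMIs of genes high without Zeb2 were held by 41.6% of Ccr2/Cx3cr1, 33.6% of Timd4 and 89.6% of Siglecf/Ms4a1 KCs. Median depths were 7756, 5049.5 and 6363.5 UMIs per cell, so these shares are not matched for depth. They do not count cells without Zeb2, and summed levels of these genes are given below.

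Single cells were sequenced in droplets (10x Genomics, with transcripts counted at their 3′ ends) to ask how loss of the transcription factor ZEB2 alters macs of 5 tissues. The liver gave 1 library per genotype: Zeb2KO KCs (Zeb2fl/fl with a Cre transgene), WT KCs from Zeb2fl/fl mice without Cre, and WT KCs from Nr1h3fl/fl mice, which carry a floxed but intact gene for LXRα. Sources differ on the Cre. The label of the Zeb2KO library reads Fcgr1-crexZeb2fl/fl. The paper gives Clec4f-cre for its single-cell data of KCs throughout, in results, legends and methods, and uses Fcgr1-cre for spleen, brain and colon. Why the label differs could not be settled. Fcgr1 encodes CD64, which macs and monocytes share. Clec4f is transcribed in KCs and not in monocytes, so a Clec4f-driven Cre would act mainly after a cell has begun to become a KC, although the study also found its activity in some B cells. In the Clec4f-cre line the Cre cassette lies behind the stop codon of Clec4f, within the end of the transcript that this assay reads. By the published methods, mice were on a C57Bl/6 background, of both sexes and 6 to 8 weeks old unless stated otherwise, with littermates as controls. The sex of the mice in each library is not given there. Live cells were sorted as positive for Clec4F, CD64, F4/80 and CD45, and how many mice entered a library is not given in the sources used here.

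KCs are seeded before birth and renew themselves in the liver sinusoids, where they clear particles, bacteria, lipids and aged red blood cells from the blood. When resident KCs are lost, circulating monocytes enter under the chemokine receptors CCR2 and CX3CR1 and take on KC features over the following weeks. Clec4F, a C-type lectin, appears early in that process. Tim4, the phosphatidylserine receptor encoded by Timd4, appears late. Monocyte-derived macs are also known for a high display of MHC class II, the molecules that present peptides to CD4+ T cells.

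The Zeb2KO KC library held 30163898 UMIs in 4717 barcodes, the Zeb2fl/fl WT library 26750299 in 4645 and the Nr1h3fl/fl WT library 19717242 in 3869. Barcodes were largely particular to a library, with 15 to 51 of those of Zeb2KO KCs and 0 to 6 of those of the Ccr2/Cx3cr1 KCs found in any of the other 10. Each group was 1 library, so no difference between libraries or cells was tested. Intervals in parentheses are exact 95% intervals for counting error only, Clopper-Pearson for shares and Poisson for levels. Levels are UMIs summed over the cells of a gate scaled to counts per 1000000 UMIs of those cells (CPM), and log2 ratios compare CPM after 1 CPM was added to each.

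Ccr2/Cx3cr1 KCs made up 10.1% (9.23 to 11.02) of Zeb2KO KCs. The same gate took 30 of 4328 cells, or 0.693% (0.468 to 0.988), in the Zeb2fl/fl WT library and 25 of 3683, or 0.679% (0.440 to 1.0004), in the Nr1h3fl/fl WT library. Timd4 KCs went the other way, at 16.3% (15.3 to 17.4) of Zeb2KO cells against 81.0% and 77.7% of WT cells. For the Ccr2/Cx3cr1 and Timd4 gates the WT libraries lay close together and far from the Zeb2KO library. Clec4f cells with the other 5 genes at 0 made up 16.0% of Zeb2KO cells, between the 11.8% and 17.3% of the WT libraries. With every cell thinned to 2500 UMIs, which leaves out shallower cells, the Ccr2/Cx3cr1 gate held 9.11% of Zeb2KO cells against 0.900% and 0.906% of WT cells. The gates were drawn again on thinned counts, so cells that lost UMIs of gate genes changed gates. In Zeb2KO the Siglecf/Ms4a1 gate went from 2238 to 1472 cells, and Clec4f cells with the other 5 genes at 0 from 713 to 1335. Ratios with thinned cells thus mix changed membership with depth.

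**Figure D1:**
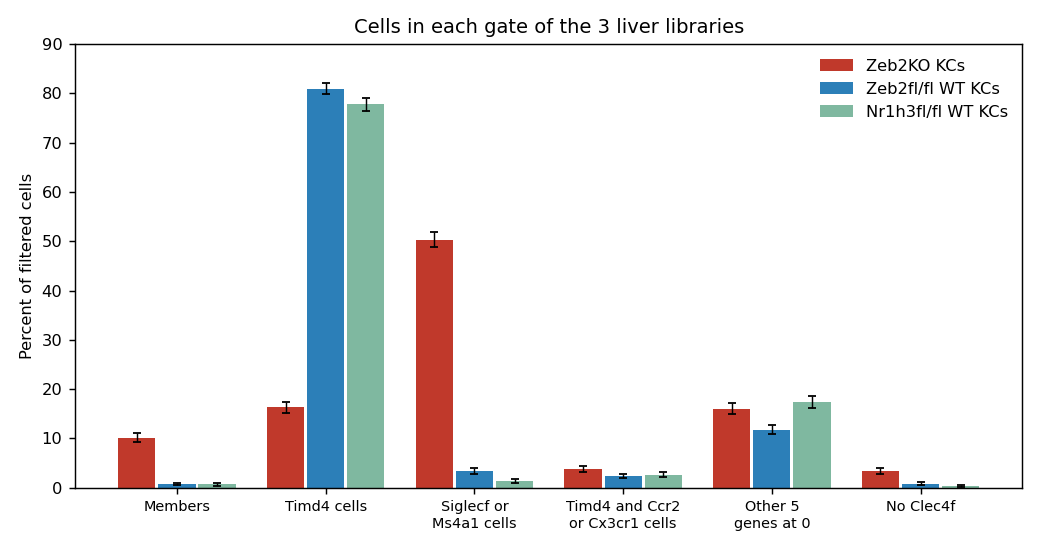
Percent of filtered cells in each of 6 gates (x axis) in the 3 liver libraries, with exact 95% Clopper-Pearson intervals for counting error. The bars named Members are the Ccr2/Cx3cr1 KCs, at 10.1% of Zeb2KO cells and under 1% of either WT library. The Siglecf or Ms4a1 gate was the largest in Zeb2KO KCs, at 50.3%.

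The gate rests on few UMIs per cell, and free RNA can place a UMI in a cell that does not transcribe the gene. In the Zeb2KO library 29.1% (27.8 to 30.4) of all cells held a UMI of Ccr2 or Cx3cr1, at a median of 5873.5 UMIs per cell. Among 145 cells with at least 5 UMIs of B cell genes, which should lack both receptors, the share was 19.3% (13.2 to 26.7) at a median of 4405 UMIs. In the WT libraries the shares were 3.26% and 3.34% of all cells against 3 of 144 and 1 of 38 such cells. Depths were not matched between these sets, and whether the shares differ at equal depth was not tested. Clec4f was found in 71.7% (63.7 to 78.9) of those cells in Zeb2KO, and since doublets were not called, KCs or doublets with KCs may be among them. With at least 3 UMIs of Clec4f required, 8.93% of cells remained in the gate.

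Checked against markers, the pooled Ccr2/Cx3cr1 KCs held mac transcripts, although 78 of the 449 lay in clusters led by genes of other cells. Adgre1, the gene of F4/80, was at 574 CPM against 778 CPM in Timd4 KCs, Csf1r at 1152 against 1256 CPM, and Fcgr1 at 309 against 302 CPM. They also held Cd5l and Vsig4, secreted and surface proteins of KCs, at 3308 (3250 to 3366) and 1063 (1030.2 to 1096) CPM. Cd5l was within 2-fold of Timd4 KCs, but Vsig4 was at 2884 CPM there. Marco, a further KC marker, was at 105 against 1407 CPM. Several genes typical of classical monocytes were close to 0: Ly6c2, the gene of the classical monocyte marker Ly6C, had 1 UMI in the 449 cells, Vcan 1, Chil3 4 and F13a1 16. A level of 3 UMIs equalled 0.785 CPM in this gate. Others on the list of monocyte and recent-arrival genes were well above the floor, such as Plac8 at 646 (621 to 672) CPM, and 23 of its 33 genes reached 20 CPM in this gate or in Timd4 KCs. Origin itself was not measured.

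As a description of the choice, Cx3cr1, the fractalkine receptor, averaged 296 (279 to 314) CPM and Ccr2, the receptor of CCL2, 167 (154 to 180) CPM in the Ccr2/Cx3cr1 KCs. In the Siglecf/Ms4a1 KCs, which the gate had not chosen on them, they were at 35.6 (32.7 to 38.7) and 60.6 (56.8 to 64.6) CPM. Clec4f was at 1717 (1675 to 1759) CPM in Ccr2/Cx3cr1 KCs, 2657 (2608 to 2706) CPM in Timd4 KCs and 1909 (1887 to 1931) CPM in Siglecf/Ms4a1 KCs. In Timd4 KCs of the Zeb2fl/fl and Nr1h3fl/fl WT libraries it was at 6155 (6123 to 6188) and 4242 (4211 to 4275) CPM. Zeb2 was at 407 (387 to 427) CPM in Ccr2/Cx3cr1 KCs and 432 (412 to 452) CPM in Timd4 KCs. These levels lay near the 386 and 506 CPM of Timd4 KCs of the WT libraries, and Siglecf/Ms4a1 KCs were apart at 1010 (994 to 1026) CPM. The study proposes that Zeb2-/- macs raise the truncated Zeb2 transcript. The floxed allele keeps the 3′ end of Zeb2 (chr2:44983632-45117395, minus strand, GRCm38/mm10), so its reads do not check the deletion, and the antisense gene Zeb2os overlaps the locus.

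Against Timd4 KCs, the Ccr2/Cx3cr1 KCs stood out for langerin, MHC class II and cycling genes on the high side. On the low side stood 14 of 31 considered KC identity genes, among them the scavenger receptor Marco, together with the lectins Cd209f and Cd209g and the complement gene C4b. Genes were considered when either gate reached 20 CPM. Of 5580 such genes 62 (1.11%) were at least 2-fold higher and 97 (1.74%) at least 2-fold lower, and the median log2 ratio of all was 0.04. Each CPM averaged over cells in place of summed UMIs gave 74 higher and 72 lower genes. Leaving out the cells rich in Saa3 and Fn1, 24 of them Timd4 KCs, gave 81 higher and 74 lower, and leaving out the clusters led by Saa3 and Fn1 or by genes of other cells gave 87 higher and 78 lower. The rule used this contrast, so the counts describe the gates and carry no test. At 20 CPM the interval of a level spanned 23.1% to either side in the Ccr2/Cx3cr1 KCs.

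**Figure D2:**
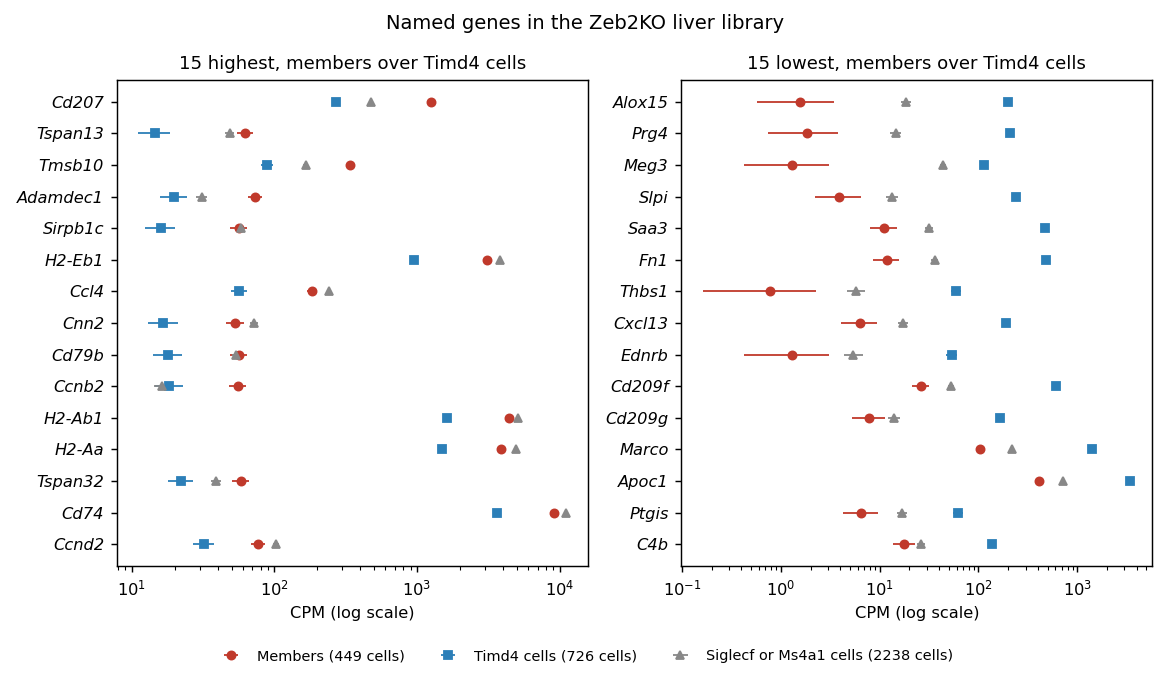
Level (CPM, log scale) of the 15 genes with the highest and the 15 with the lowest log2 ratio of Ccr2/Cx3cr1 KCs (members) over Timd4 KCs, taken from genes that reached 50 CPM in either gate, gate genes aside. Points are pooled levels in 1 library with exact 95% Poisson intervals, and grey triangles give the Siglecf/Ms4a1 KCs, which were within 2-fold of the Ccr2/Cx3cr1 KCs for H2-Eb1, H2-Ab1, H2-Aa and Cd74.

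Among genes that reached 50 CPM, Cd207 had the highest ratio. It encodes langerin, a mannose-binding lectin known from Langerhans cells and some dendritic cells, and was at 1256 (1220 to 1292) CPM in Ccr2/Cx3cr1 KCs, 269 (253 to 285) CPM in Timd4 KCs and 474 (463 to 485) CPM in Siglecf/Ms4a1 KCs. The log2 ratio over Timd4 KCs was 2.22. The Timd4 KCs of the WT libraries were at 217 (211 to 224) and 241 (233 to 249) CPM, close to those of Zeb2KO. On the genome Cd207 (chr6:83671215-83677857, minus strand, GRCm38/mm10) is a neighbour of Clec4f (chr6:83644542-83656187, minus strand), with 15028 bases between them.

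Most MHC class II genes above the floor were higher. Of 7 considered of the 11 on the list, 5 were at least 2-fold higher and none lower, with a median log2 ratio of 1.32. H2-Eb1 (chr17:34305867-34316674), a β chain of I-E, was at 3092 (3036 to 3148) against 945 (916 to 974) CPM. H2-Ab1 and H2-Aa, the chains of I-A, were at 4384 (4318 to 4451) against 1629 (1590.3 to 1668) CPM and at 3901 (3838 to 3964) against 1502 (1465 to 1539) CPM. Cd74, the invariant chain that guides these molecules to the endosome, was at 9112 (9017 to 9208) against 3657 (3599 to 3715) CPM. H2-DMb2 was the fifth, at 25.9 against 10.2 CPM. H2-DMa and H2-DMb1, chains of the peptide-loading molecule, had lower log2 ratios of 0.58 and 0.83. Ciita, the master regulator of the pathway, was under the floor in both gates, at 15.2 and 4.75 CPM. Of the 5 considered genes of antigen-presenting and dendritic cells, Cd207 alone reached 2-fold, and Cd86, a costimulatory ligand, was at 205 (191 to 220) against 252 (237 to 268) CPM.

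The list of monocyte and recent-arrival genes was mixed, with 5 of 23 considered at least 2-fold higher, 4 at least 2-fold lower and a median log2 ratio of 0.03. Higher were Tmsb10, an actin-binding thymosin, at 341 (323 to 360) against 88.7 (79.98 to 98.2) CPM, and Plac8, with a log2 ratio of 1.16. Napsa, an aspartic protease, was at 30.9 (25.6 to 37.0) against 5.46 (3.46 to 8.19) CPM, and S100a11 and Ms4a4c had log2 ratios of 1.21 and 1.22. Fn1, Thbs1, Itgam and Ahnak were the lower 4. Fn1, fibronectin, was at 11.8 (8.59 to 15.8) against 487 (466 to 508) CPM, and Thbs1 had 3 UMIs, a level of 0.785 (0.162 to 2.29) against 59.3 (52.2 to 67.2) CPM.

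The low of Fn1 turned on 24 of the 726 Timd4 KCs. These cells held at least 10 UMIs of Saa3, Fn1, Prg4, Alox15 and Slpi together, as did 1 Ccr2/Cx3cr1 KC and 7 Siglecf/Ms4a1 KCs. Alox15, a lipoxygenase, had the lowest log2 ratio of any gene outside the gate at -6.29, followed by Prg4 at -6.21, with Slpi at -5.61, Saa3 at -5.29 and Ednrb at -4.57. Without the 24 cells Alox15 and Prg4 had log2 ratios of -0.37 and -0.62, and Fn1 and Slpi of -0.08 and -0.05. Saa3 changed sign to 0.12. The monocyte list then had 9 of 20 considered genes at least 2-fold higher, none lower and a median of 0.85. With all cells 23 of its genes had been considered. Thbs1 stayed at least 2-fold lower but was then under the floor. C4b stayed lower, at -2.14, whereas the lysosomal tetraspanin Cd63 went from 1.04 to 2.90. Cd63 fell short of 2-fold with at least 2 UMIs of Timd4 required (0.67) and with a pseudocount of 10 (0.74). Alox15, Prg4, Fn1, Slpi and Saa3 picked the 24 cells, so the shift of their own ratios was fixed by that choice. It shows only that their UMIs in Timd4 KCs lay largely in few cells. Fn1 is also on the monocyte list, and these cells were left out after the data were seen. The shifts of that list and of Cd63 therefore carry no test.

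Other genes higher in Ccr2/Cx3cr1 KCs than in Timd4 KCs came from several families. Tspan13 and Tspan32, tetraspanins of the cell membrane, were at 62.5 (54.9 to 71.0) against 14.5 (11.1 to 18.6) CPM and at 58.1 (50.7 to 66.3) against 22.1 (17.8 to 27.04) CPM. Adamdec1, a secreted metalloprotease of macs, was at 73.3 (64.9 to 82.4) against 19.7 (15.7 to 24.4) CPM in Timd4 KCs and 62.2 (58.9 to 65.5) and 72.4 (68.3 to 76.7) CPM in WT Timd4 KCs. It was also at 30.8 (28.1 to 33.7) CPM in Siglecf/Ms4a1 KCs, so within the Zeb2KO library the Ccr2/Cx3cr1 KCs were the gate nearest to WT Timd4 KCs for this gene. Ccl4, a chemokine that attracts monocytes and T cells, was at 182 (169 to 196) against 56.7 (49.8 to 64.4) CPM, and Cnn2, a calponin, at 53.1 (46.1 to 60.9) against 16.6 (12.9 to 20.99) CPM. Sirpb1c, a signal-regulatory protein, had a log2 ratio of 1.76. Cd79b, a chain of the B cell receptor, was at 56.3 (49.0 to 64.3) against 17.8 (13.999 to 22.3) CPM while its partner Cd79a was at 2.62 against 7.59 CPM. Cd79b made up most of the summed level of the 10 measured B cell genes in Ccr2/Cx3cr1 KCs, which was 70.9 CPM against 45.8 CPM in Timd4 KCs. In Siglecf/Ms4a1 KCs Ccl4, Cnn2 and Sirpb1c were at 241, 71.9 and 58.1 CPM, no lower than in Ccr2/Cx3cr1 KCs. Tspan13, Tspan32 and Cd79b were at 48.4, 38.9 and 53.8 CPM there, below the Ccr2/Cx3cr1 KCs by less than 2-fold.

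Transcripts of the cell cycle were higher in Ccr2/Cx3cr1 KCs than in Timd4 KCs. The study left contaminating and actively proliferating cells out before it made its groups, whereas the gates here keep such cells. Of 31 genes of the cell cycle list 12 were at least 2-fold higher, 1 lower, and the median log2 ratio was 0.78. Ccnb1 and Ccnb2, the mitotic cyclins, were at 34.3 (28.7 to 40.7) against 10.7 (7.79 to 14.3) CPM and at 55.5 (48.3 to 63.5) against 18.3 (14.4 to 22.8) CPM. Ccna2 had a log2 ratio of 1.29 and Ccnd2, a cyclin of early G1, of 1.24. Ccna2 fell short of 2-fold without the deepest 5% of cells (0.93) and with a pseudocount of 10 (0.90). Ccnd2 did so without cells high for genes raised without Zeb2 (0.60). Cdkn1a, the cell cycle inhibitor p21, was the gene that went against the list, at 30.9 (25.6 to 37.0) against 103 (94.0 to 114) CPM, but its log2 ratio went from -1.71 to -0.71 with thinned cells. With each cell thinned to 2500 UMIs, 66 of 440 Ccr2/Cx3cr1 KCs, or 15% (11.8 to 18.7), held at least 3 UMIs of 10 mitotic genes, against 6.07% (4.39 to 8.14) of 676 Timd4 KCs and 3.22% (2.52 to 4.05) of 2172 Siglecf/Ms4a1 KCs. For these shares the gates drawn before thinning were kept. Thinning left out 9, 50 and 66 cells, and unthinned the shares were 24.5%, 8.26% and 5.54%. Without those cells Ccnb1 changed sign, to -0.15, Ccnb2 and Ccna2 were at 0.41 and 0.30, and 3 of 17 cell cycle genes were at least 2-fold higher. Ccnb1, Ccnb2 and Ccna2 were among the 10 genes that picked those cells, so their fall follows from the choice.

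Of the KC identity list, 14 of 31 considered genes were at least 2-fold lower and none higher, with a median log2 ratio of -0.87 against 0.04 over all genes. Marco (chr1:120474538-120505024), a scavenger receptor for bacteria and particles, was at 105 (94.7 to 115) against 1407 (1371 to 1443) CPM. Timd4 KCs of both WT libraries were lower in Marco than those of Zeb2KO. Apoc1, an apolipoprotein, was at 408 (388 to 429) against 3445 (3389.5 to 3502) CPM, and Cxcl13, a chemokine for B cells, at 6.28 (4.02 to 9.34) against 191 (178 to 205) CPM. C6, a component of the membrane attack complex, was at 49.2 (42.4 to 56.7) against 240.4 (226 to 256) CPM. The other 10 were Vsig4, Pcolce2, Kcna2, Fcna, Cd163, Slc16a9, Xlr, Gfra2, Il18 and Kcnj16, at log2 ratios of -2.11 to -1.09.

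The rest of the KC identity list was within 2-fold. Nr1h3, the gene of LXRα, was at 299 against 305 CPM, Id3, a KC transcriptional regulator, at 1403 against 1219 CPM and Spic, a regulator of haem-handling macs, at 86.9 against 99.2 CPM. Cd5l had a log2 ratio of -0.42, Clec1b of -0.08, the iron exporter Slc40a1 of -0.40 and Fabp7 of 0.06. Slc1a2, a glutamate transporter, went furthest the other way, at 37.7 (31.8 to 44.4) against 21.1 (17.0 to 26.0) CPM. Among 19 considered mac transcription factors, 1, Mef2c, was at least 2-fold higher, at 31.1 against 14.5 CPM, and none was lower. Over all genes considered 1.11% were higher and 1.74% lower by that measure, so such counts say little about this list. Mef2c had a log2 ratio of 1.05 and fell short of 2-fold, at 0.75 to 0.97, in 5 other settings, thinning among them.

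Lists for functions of resident KCs held lower genes too, some of them on the KC identity list as well. Of 18 considered scavenger and efferocytosis receptors 4 were at least 2-fold lower, led by Cd209f and Cd209g, lectins of the SIGN-R family, at 26.2 (21.3 to 31.8) against 611 (587 to 635) CPM and 7.85 (5.30 to 11.2) against 164 (152 to 177) CPM. The median log2 ratio of that list was -0.33. For Cd209f, the Timd4 KCs of Zeb2KO lay above those of both WT libraries. Of 13 considered complement genes 4 were lower, with a median of -0.49. Among them, C4b was at 17.8 (13.8 to 22.6) against 136 (125 to 148) CPM, C2 at 2.35 against 31.1 CPM and Vsig4, which clears complement-coated particles, at 1063 against 2884 CPM. The 3 chains of C1q were within 2-fold, C1qa at 5631 against 7694 CPM.

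Haem and iron genes had 2 of 12 considered at least 2-fold lower and a median of -0.36. They were Cd163, the haemoglobin receptor, at 33.8 (28.2 to 40.1) against 132 (121 to 143) CPM, and Hmox1, which degrades haem, at 547 (523 to 571) against 1404 (1368 to 1440.1) CPM. In Siglecf/Ms4a1 KCs the 2 genes were at 30.8 and 540 CPM, close to the Ccr2/Cx3cr1 KCs. Of 17 LXR and cholesterol genes Apoc1 alone was at least 2-fold lower, with a median of -0.14, and Abca1, the cholesterol exporter, was at 103 (92.7 to 113) against 182 (170 to 196) CPM. Lipid-associated and lysosomal genes went both ways, with 2 of 15 higher, 2 lower and a median of -0.38. Mmp12, the mac elastase, was at 39.2 (33.2 to 46.1) against 4.51 (2.71 to 7.04) CPM, from 4.01% of the 449 cells, and with thinned cells its log2 ratio went from 2.87 to 0.98, short of 2-fold. Trem2, a lipid receptor, was at 140 (128 to 152) against 306 (289 to 323) CPM, with a log2 ratio of -0.82 without cells holding UMIs of other cell types. The other lower gene, the tetraspanin Cd9, fell short of 2-fold in 11 other settings and changed sign without the 24 Saa3 and Fn1 cells.

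Few genes of the inflammatory lists reached 2-fold. Of all genes considered 1.11% were at least 2-fold higher and 1.74% at least 2-fold lower, so counts this small say little about these lists. None of 17 considered interferon-stimulated genes and none of 17 immediate early and stress genes reached 2-fold, with medians of 0.15 and 0.27. Of 10 cytokine genes Il18 alone was at least 2-fold lower, at 90.3 (81.0 to 100.3) against 201 (187 to 215) CPM, though its log2 ratio of -1.14 went to -0.78 without cells holding UMIs of other cell types, and Il1b was at 226 (211 to 241) against 121 (111 to 132) CPM. Of 14 chemokine ligands Ccl4 was higher and Cxcl13 and Cxcl2 lower, with a median of -0.19, and Cxcl2 changed sign, to 1.39, without the 24 Saa3 and Fn1 cells. None of 7 chemokine receptors outside the gate reached 2-fold, with a median of -0.02. Without the same cells Ccr1, a receptor of CCL3, went from 0.77 to 2.86.

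**Figure D3:**
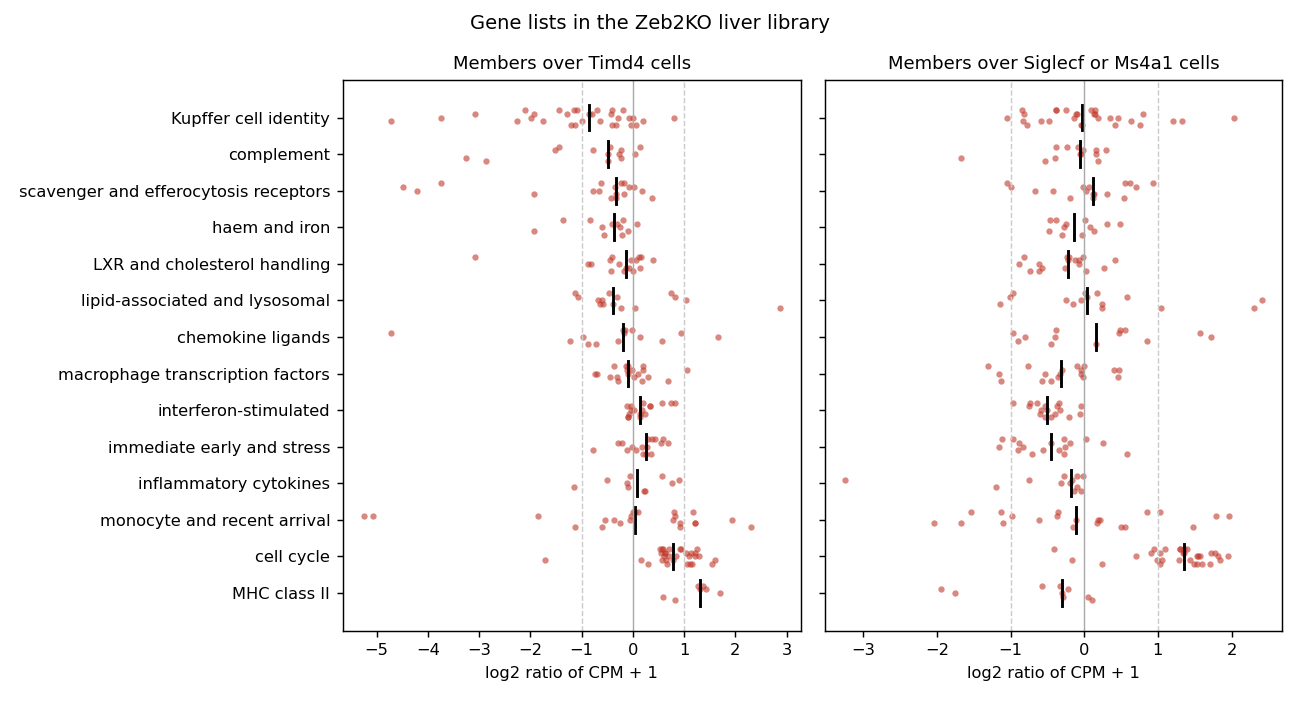
Log2 ratio of CPM + 1 (x axis) of each considered gene (points) in 14 gene lists, for Ccr2/Cx3cr1 KCs (members) over Timd4 KCs on the left and over Siglecf/Ms4a1 KCs on the right, with a black bar at each list's median and dashed lines at 2-fold. The median of KC identity lay at -0.87 on the left and -0.03 on the right, and that of MHC class II at 1.32 and -0.30.

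Against the Siglecf/Ms4a1 KCs the pattern was different. Of 5584 genes considered, 129 (2.31%) were at least 2-fold higher in Ccr2/Cx3cr1 KCs and 153 (2.74%) at least 2-fold lower, and the median log2 ratio was 0.08. This split depended on the scaling: with TMM factors, which shift the ratios by -0.14, 93 were higher and 222 lower, and with thinned cells 188 were higher and 141 lower. In contrast to the comparison with Timd4 KCs, KC identity genes had a median of -0.03, with 3 of 29 considered at least 2-fold higher and 1, Marco, lower, and Cxcl13 under the floor at 6.28 and 17.4 CPM. MHC class II genes had a median of -0.30, with 2 of 9 at least 2-fold lower, H2-Oa and H2-Ob, whose products restrain peptide loading.

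All 14 genes of the list of genes high without Zeb2 were at least 2-fold lower than in Siglecf/Ms4a1 KCs, with a median log2 ratio of -2.12. The study chose that list on these samples, so its direction is not independent evidence. Il1r2, a decoy receptor of interleukin 1, was at 5.49 (3.40 to 8.40) against 60.4 (56.6 to 64.4) CPM, and Pglyrp1, a peptidoglycan-binding protein, at 16.7 (12.9 to 21.4) against 165 (159 to 172) CPM. Both were close to their levels in Timd4 KCs, 5.70 and 17.1 CPM. Further lows outside the list were Ltb (lymphotoxin β) at -3.10, Ddit4, a stress-induced inhibitor of mTORC1, at -3.03 and Gm3336 at -2.93. Summed over its 14 genes, the same list was at 430 CPM in Ccr2/Cx3cr1 KCs, 440 CPM in Timd4 KCs and 1795 CPM in Siglecf/Ms4a1 KCs. Over Timd4 KCs it had 2 of 6 considered genes higher, Cd34 and Plp2, and 1, Dpep2, lower. Plp2 fell short of 2-fold in 6 other settings and Dpep2 in 10, and Plp2 changed sign in 1 and Dpep2 in 4 of them. Cd34 was at 26.7 (21.8 to 32.4) CPM in Ccr2/Cx3cr1 KCs, 5.70 (3.65 to 8.47) CPM in Timd4 KCs and 114 (109 to 120) CPM in Siglecf/Ms4a1 KCs.

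Cycling genes led the high side over Siglecf/Ms4a1 KCs. Of 31, 24 were at least 2-fold higher and none lower, with a median of 1.35, and with TMM factors 20 were. Stmn1, a microtubule regulator, was at 341 (322 to 360) against 87.0 (82.5 to 91.8) CPM and Rrm2, a subunit of ribonucleotide reductase, at 57.0 (49.7 to 65.1) against 15.5 (13.6 to 17.6) CPM. Outside the cycle, Ms4a6c, a membrane protein of monocytes and macs, was at 405 (385 to 426) against 98.1 (93.2 to 103) CPM and Vim, the intermediate filament vimentin, at 180 (167 to 194) against 45.2 (41.9 to 48.7) CPM. Ms4a6c was at 240.4 CPM in Timd4 KCs and Vim at 103 CPM, so for both the Ccr2/Cx3cr1 KCs were the highest of the 3 gates. Retnla had the highest ratio, 150 (138 to 163) against 4.33 (3.36 to 5.50) CPM, but its UMIs came from 8 of the 449 cells and its ratio changed sign when members were chosen by Cx3cr1 alone.

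The Ccr2/Cx3cr1 KCs varied among themselves. Of the 449, 83 held Ccr2 UMIs only, 245 held Cx3cr1 only and 121 held both, at medians of 7559, 7082 and 10105 UMIs per cell. H2-Eb1 was at 4639 (4474 to 4808) CPM with Ccr2 only, 3765 CPM with both and 2149 CPM with Cx3cr1 only, all above the 945 CPM of Timd4 KCs. Tmsb10 followed the same order, at 719, 383 and 189 CPM. The cells with Ccr2 only also held Cd209a, a lectin of dendritic cells, at 88.7 (67.2 to 115) CPM against 0.807 CPM with both and 1.55 CPM with Cx3cr1 only, and Retnla at 887 CPM against 1.61 and 1.03 CPM. These UMIs came from 6.02% and 4.82% of the 83 cells. The part of such cells in the order of H2-Eb1 was not tested. Vsig4 had another, at 706 CPM with Ccr2 only, 514 CPM with both and 1531 CPM with Cx3cr1 only. Cd207 was highest with both genes, at 1502 CPM, then Cx3cr1 only, at 1241 CPM, then Ccr2 only, at 824 CPM. Cells with Cx3cr1 only therefore lay nearest to the Timd4 KCs for H2-Eb1, Tmsb10 and Vsig4, and those with Ccr2 only for Cd207.

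**Figure D4:**
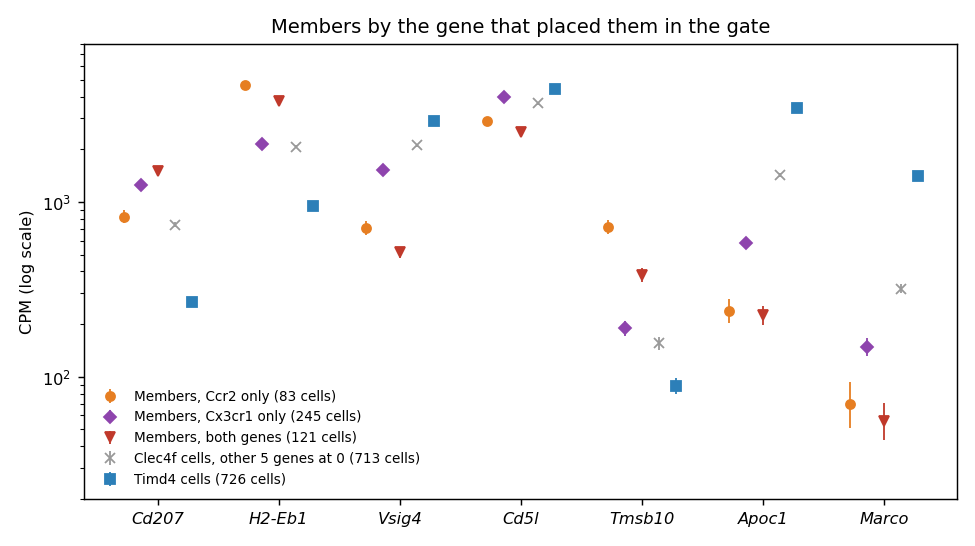
Level (CPM, log scale) of 7 genes in Ccr2/Cx3cr1 KCs split by the gene that placed them in the gate, in Clec4f cells with the other 5 genes at 0 and in Timd4 KCs, with exact 95% Poisson intervals. Marco was at 55.7 to 147 CPM in the 3 sets of members, 319 CPM in Clec4f cells without the other 5 genes and 1407 CPM in Timd4 KCs.

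At the edge of the gate, 149 cells held 1 UMI of Ccr2 or Cx3cr1, 80 held 2 and 220 held at least 3. From 1 UMI to at least 3, Marco went from 190 to 63.7 CPM, Apoc1 from 763 to 242 CPM and Cd207 from 1000 to 1462 CPM. Just outside were 713 cells with Clec4f and no UMI of the other 5 genes, in which Marco was at 319 CPM, Apoc1 at 1418 CPM and Cd207 at 742 CPM. A further 65 cells with Ccr2 or Cx3cr1 and 1 UMI of Timd4 had Marco at 453 CPM, Apoc1 at 1735 CPM and Cd207 at 764 CPM. For these 3 genes the sets outside the threshold lay between the Ccr2/Cx3cr1 KCs and the Timd4 KCs. H2-Eb1 did not grade in this way, at 1938 CPM with 1 UMI, 3723 CPM with 2 and 3481 CPM with at least 3, against 2069.7 CPM in the 713 cells. Median depth went from 4463 UMIs in the 713 cells to 9006.5 in those with at least 3 UMIs, and its part in these values was not tested.

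To see whether the gate followed other transcripts, the Zeb2KO cells were clustered without the 6 gate genes. Of the Ccr2/Cx3cr1 KCs, 45.7% (41.0 to 50.4) fell in cluster 4 of 14, against 6.89% (5.15 to 8.98) of Timd4 KCs and 3.89% (3.13 to 4.77) of Siglecf/Ms4a1 KCs. The leading genes of cluster 4 were Mmp12, Cd207, Slc1a2, Cxcl14, Ms4a6c, Tmem119, Cd63, Acp5, Adamdec1 and Olfml3. A further 12.5% and 9.58% fell in cluster 7, led by Uhrf1 and Rrm2, and cluster 9, led by Ube2c and Ccnb1. Cluster 3, led by Cd209f, held 5.12% (3.27 to 7.59) of them and 51.4% (47.7 to 55.1) of Timd4 KCs. Clusters 1 and 2, where 38.0% and 29.9% of Siglecf/Ms4a1 KCs lay, held 2.45% and 5.79%. Clustered without the gate genes, the 3 gates thus still had their cells mostly in different clusters, and the clusters were made from the same cells, so this carries no test.

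**Figure D5:**
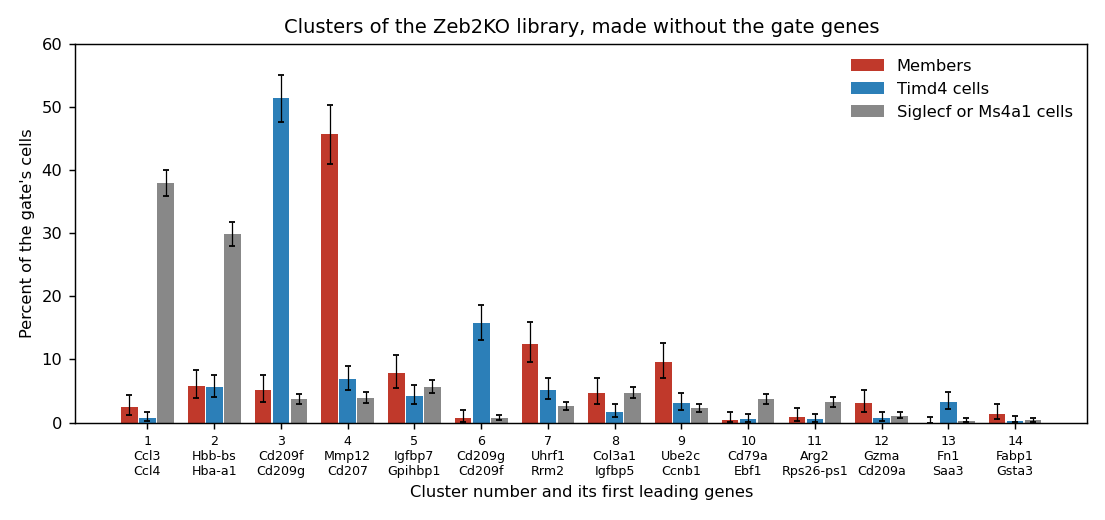
Percent of the cells of each gate (y axis) in each of 14 clusters of the Zeb2KO library (x axis, with the first leading genes), with exact 95% Clopper-Pearson intervals for counting error. The Ccr2/Cx3cr1 KCs (members) peaked in cluster 4, the Timd4 KCs in cluster 3 and the Siglecf/Ms4a1 KCs in clusters 1 and 2.

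Cluster 4 and the gate were not the same set. Of its 562 cells 205, or 36.5%, were Ccr2/Cx3cr1 KCs, and 159 had no UMI of the other 5 gate genes. Within the cluster, Cd207 was at 1767 CPM in Ccr2/Cx3cr1 KCs and 1564 CPM in the 87 Siglecf/Ms4a1 KCs. It was at 1346 CPM in cells without the other 5 genes and 886 CPM in the 50 Timd4 KCs. Cd74 was at 10470 (10316 to 10626), 9123, 7505 and 5219 CPM in the same order, and Marco at 73.8, 127, 97.4 and 283 CPM. Ccr2/Cx3cr1 KCs elsewhere were richer in cycling transcripts, with Stmn1 at 528 CPM against 102 CPM and Mki67 at 105 CPM against 10.7 CPM. They were lower in Cd207, at 854 CPM, and Mmp12, at 6.07 CPM against 81.5 CPM.

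Markers of other cell types were followed in the same gates. The 12 endothelial genes, among them Stab2, Kdr and Clec4g, summed to 1234 CPM in Ccr2/Cx3cr1 KCs, 897 CPM in Timd4 KCs and 1007 CPM in Siglecf/Ms4a1 KCs, with none at 0, none 2-fold apart and a median log2 ratio over Timd4 KCs of 0.52. The 11 measured genes of T and NK cells summed to 26.2, 6.17 and 14.7 CPM, and the 7 of classical dendritic cells to 191, 138 and 193 CPM, of which Batf3 made up 148, 121 and 161 CPM. Hepatocyte genes summed to 872, 1248 and 1029 CPM, mostly Trf, and B cell genes to 147 CPM in Siglecf/Ms4a1 KCs. Neutrophil genes summed to 31.9, 49.1 and 84.6 CPM with S100a8 and S100a9 at 0 in the Ccr2/Cx3cr1 KCs. Lists of plasmacytoid dendritic, stellate, red and platelet cells summed to at most 6.88 CPM in both Ccr2/Cx3cr1 and Timd4 KCs, and 7 genes of basophils, mast cells and eosinophils were at 0 in all 3 gates. Endothelial, hepatocyte and dendritic cell lists were thus present in every gate, and their part in the other values was not tested.

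Depth differed too, with medians of 7756 UMIs in Ccr2/Cx3cr1 KCs, 5049.5 in Timd4 KCs and 6363.5 in Siglecf/Ms4a1 KCs, and 14.5% of Ccr2/Cx3cr1 KCs among the deepest 5% of cells against 3.44% of Timd4 KCs. Clusters led by genes of other cells or by Saa3 and Fn1 held 17.4%, 10.7% and 15.7% of the 3 gates, the last of these clusters holding 24 Timd4 KCs and no Ccr2/Cx3cr1 KC. Without all of them, the 24 cells included, 7 of 18 monocyte genes were at least 2-fold higher and none lower, MHC class II had a median of 1.14 and 15 KC identity genes were at least 2-fold lower. Doublets of a KC with another cell were not called, and their part in these values was not tested.

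In the WT libraries the gate held 30 and 25 cells, so that 3 UMIs equalled 15.9 and 22.6 CPM, and counts there are coarse. Of all genes considered, 11% and 8.63% were at least 2-fold higher than in Timd4 KCs of the same library and 8.58% and 10.2% at least 2-fold lower. Cd207 was at 542 (442 to 658) against 217 CPM in the Zeb2fl/fl and 671 (539 to 826) against 241 CPM in the Nr1h3fl/fl library. H2-Eb1 was at 7503 (7117 to 7905) against 2068 CPM and 3537 (3224 to 3872) against 774 CPM. Both genes were thus on the high side of the gate in these few WT cells. B cell genes summed to 186 against 61.8 CPM in the Zeb2fl/fl and to 60.3 against 64.0 CPM in the Nr1h3fl/fl library. Their part in these levels was not tested.

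KC identity genes at least 2-fold lower numbered 23 of 32 in the Zeb2fl/fl and 9 of 32 in the Nr1h3fl/fl library, with medians of -1.73 and -0.71. Apoc1 was at 1482 (1313 to 1666) against 5752 CPM and 2866 (2585 to 3169) against 5175 CPM, a smaller fold difference than in Zeb2KO KCs. Marco was at 90.3 (52.6 to 145) against 342 CPM in the Zeb2fl/fl library, but at 618 (492 to 768) against 658 (645 to 670.3) CPM in the Nr1h3fl/fl library, where the intervals overlapped. Cd209f went in opposite directions, at 287 (215 to 374) against 127 (122 to 132) CPM and 90.5 (46.8 to 158) against 209.9 (203 to 217) CPM. Timd4 KCs of the Zeb2KO library, at 611 CPM for Cd209f and 1407 CPM for Marco, lay above those of both WT libraries. For Apoc1, at 3445 CPM, they lay below. Monocyte and recent-arrival genes were at least 2-fold higher for 20 of 29 and 11 of 21. Genes high without Zeb2 summed to 584 against 84.9 CPM and to 287 against 66.4 CPM. Of those considered, 7 of 8 and 4 of 5 were at least 2-fold higher. The Zeb2fl/fl WT mice had no Cre, so a UMI of this list does not by itself mark loss of Zeb2 in the gated cells. Genes of T and NK cells summed to 807 and 287 CPM in these cells against 6.27 and 5.90 CPM in Timd4 KCs, and their part in the WT values was not tested.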

How the data were processed

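The authors aligned the reads to mm10 with STAR within Cell Ranger and deposited tables of UMI counts, not normalized, for 27998 genes by barcode, and these counts are the unit used. Cell Ranger and mm10 are also named in the submitters' processing notes. Whether counting used strand is not given in the sources used here. Barcodes beyond 3 median absolute deviations of their library in log UMIs, log genes or, upwards, percent mitochondrial UMIs were left out. Total counts per liver library and the precision of levels are given in the text, and PCR and free RNA are not covered by the intervals.

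UMIs were summed per gate and scaled to CPM (python 3.11.15, numpy 2.4.6, scipy 1.17.1). The 6 gate genes were left out of all counts of genes. Genes that reached 20 CPM in either gate were considered, and a fold was called at 2. Named were the 15 highest and lowest ratios over Timd4 KCs and the 8 highest and lowest over Siglecf/Ms4a1 KCs among genes of at least 50 CPM, leaving out mitochondrial, ribosomal, immunoglobulin, haemoglobin and sex-linked genes, and up to 4 genes of each list with the one furthest against its direction. Other genes of a list, cluster or marker set in the text were chosen after their values were seen. Clusters came from scanpy 1.11.5 with leidenalg 0.10.2 (2000 variable genes without the gate genes, 30 components, 15 neighbours, resolution 0.8). TMM factors came from edgeR 4.0.16 in R 4.3.3. No doublet caller was run. The alternatives were another gate, cell set, CPM floor, pseudocount or scaling, and thinning. The summing and ratio steps were tested on simulated data. Coordinates are those of GENCODE M21. Figures were drawn with matplotlib 3.10.9. The cells, lists and rules were chosen with earlier results of these data known.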

Additional observations from a re-analysis of the deposited data

How the results depend on the processing

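Results were recomputed under 17 planned settings and 2 chosen after seeing the data. No paired analysis was possible because each group had 1 library, and for the same reason no replicate could be left out. The share of Ccr2/Cx3cr1 KCs, 10.1%, moved to 9.11% with thinned cells, 6.75% with at least 2 UMIs of Ccr2 and Cx3cr1, 4.59% by Ccr2 alone, 8.23% by Cx3cr1 alone and 8.93% with at least 3 UMIs of Clec4f. It was 7.76% without cells holding at least 2 UMIs of a list of other cell types (hepatocyte and red cell lists aside), 6.53% when cells with at least 3 UMIs of genes raised without Zeb2 were left out of the Ccr2/Cx3cr1 and Timd4 KCs only, 8.35% without dividing cells and 9.09% without the deepest 5%. Genes higher than in Timd4 KCs (62) numbered 122 by Ccr2 alone, 151 without cells holding UMIs of other cell types, 189 and 29 at floors of 5 and 50 CPM and 34 with a pseudocount of 10, and genes lower (97) numbered 163 without those cells and 188 and 49 at the floors. Genes higher than in Siglecf/Ms4a1 KCs (129) numbered 224 without those cells, 83 without dividing cells, 320 and 54 at the floors and 59 with a pseudocount of 10. Genes lower (153) numbered 235 under that filter, which spared the Siglecf/Ms4a1 KCs, 269 and 84 at the floors and 96 with a pseudocount of 10. Leaving out cells with UMIs of other cell types left 116 Ccr2/Cx3cr1, 315 Timd4 and 712 Siglecf/Ms4a1 KCs, and fewer UMIs widen the spread of ratios. Monocyte genes at least 2-fold higher (5) numbered 8 with at least 2 receptor UMIs, 10 by Ccr2 alone, 3 by Cx3cr1 alone and 9 without the Saa3 and Fn1 cells. KC identity genes at least 2-fold lower numbered 12 to 17 in every setting.

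Of 66 named ratios at least 2-fold apart, 41 stayed so in every setting. Sign changes were counted among these 66 only. Of their 1122 values in other settings, 22 changed sign, and the cause was not tested. Over Timd4 KCs these were Ccnb1 without dividing cells (-0.15) and Cxcl2 with thinning (0.063), without cells with UMIs of other types (0.20), without cells high for genes raised without Zeb2 (1.31), without the Saa3 and Fn1 cells (1.39) and without clusters of other cells and of Saa3 and Fn1 (1.63). Dpep2 changed with thinning (0.29), without the deepest cells (0.017), without the Saa3 and Fn1 cells (0.31) and without clusters of other cells (0.047). Without cells high for genes raised without Zeb2, Plp2 (-0.066), Slpi (0.023) and Saa3 (0.26) changed, as did Cd9 (0.18) and Saa3 (0.12) without the Saa3 and Fn1 cells and Saa3 (0.48) without clusters of other cells. Over Siglecf/Ms4a1 KCs, Retnla changed by Cx3cr1 alone (-1.24), with at least 3 UMIs of Clec4f (-0.90), without cells with UMIs of other types (-0.81), without cells high for genes raised without Zeb2 (-1.44) and without clusters of other cells (-1.04), and S100a6 without cells high for genes raised without Zeb2 (-0.27).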

Other observations

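Meg3, an imprinted long noncoding RNA (chr12:109541001-109571726, GRCm38/mm10), was at 1.31 (0.425 to 3.05) CPM in them, at 115 (105 to 126) CPM in Timd4 KCs and at 44.0 (40.8 to 47.4) CPM in Siglecf/Ms4a1 KCs of the Zeb2KO library. In WT Timd4 KCs it was at 0.136 (0.0281 to 0.398) and 2.07 (1.43 to 2.91) CPM. The Timd4 KCs of the Zeb2KO library therefore stood above both WT libraries for Meg3, and the Ccr2/Cx3cr1 KCs did not. The UMIs came from 8.26% of the 726 Timd4 KCs.

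Ccr3, the eotaxin receptor, was at 79.8 (71.1 to 89.3) CPM in Ccr2/Cx3cr1 KCs, 143 (132 to 155) CPM in Timd4 KCs and 323 (315 to 333) CPM in Siglecf/Ms4a1 KCs. Tspan15, a tetraspanin, was at 122 (112 to 134) and 129 (119 to 141) CPM in the first and second and at 34.8 (31.9 to 37.8) CPM in the last. Ptgis, prostacyclin synthase, was at 6.54 (4.23 to 9.66), 62.4 (55.1 to 70.4) and 16.9 (14.9 to 19.0) CPM. Of the 5 sex-linked genes Xist, which female cells transcribe, had no UMI in any of these gates. Ddx3y, a Y-linked helicase, was at 62.8 (55.1 to 71.3), 91.4 (82.5 to 101) and 87.4 (82.8 to 92.2) CPM. Cells of male mice were thus present in each gate, and the counts gave no sign of cells of female mice. None of the 3 considered sex-linked genes was 2-fold apart between Ccr2/Cx3cr1 and Timd4 KCs.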
